A study of Mus musculus with 2 samples.

Results

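The Hoxb cluster on mouse chromosome 11 was examined for Hdac1 and Hdac2 islands in nephron progenitor cells. The 10 Hoxb genes were taken by name, Hoxb1 to Hoxb9 and Hoxb13, out of 21887 protein-coding genes that RefSeq annotates on the autosomes, X and Y. Chromatin immunoprecipitation with sequencing had been carried out on cells isolated from kidneys of wild-type mouse embryos at E16.5 and cultured before crosslinking with formaldehyde. Chromatin was precipitated with an Hdac1 antibody for 1 library and with an Hdac2 antibody for the other, and no treatment is named for either. An island is a stretch of the genome (build mm10) that the authors' caller, SICER, found enriched in reads, and each carries 1 value of the authors, a p-value or a q-value. With 1 library per antibody no difference below has a replicate check or a p of its own, and the read depth is unknown. The amount of antibody also differed, 0.5 µg in the Hdac1 and 1 µg in the Hdac2 precipitation, and the effects of target and amount cannot be told apart. Control precipitations with IgG and for H3K4me3 were run alongside and are not analysed here.

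Hox genes encode homeodomain transcription factors that give cells their position along the body axis, and genes of a cluster are switched on in the order in which they lie. Hdac1 and Hdac2 are class I deacetylases, which remove acetyl groups from histone tails as part of corepressor complexes. In the kidney, the paralogs of group 11 are required for the metanephric kidney to form. The Hoxb cluster has no gene of that group. Hoxb7 is known for its activity in the nephric duct and ureteric bud, where its regulatory sequence is widely used to drive transgenes.

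A single Hdac1 island spanned 8 of the 10 Hoxb genes end to end, and the same stretch carried 11 separate Hdac2 islands. The Hdac1 island, chr11:96268001-96357400, measured 89.4 kb and was one of 82 Hdac1 islands listed at 0, the lowest value in that list. It was the widest of the 30182 Hdac1 islands. It held the whole annotated spans of Hoxb9, Hoxb8, Hoxb7, Hoxb6, Hoxb5, Hoxb4, Hoxb3 and Hoxb2. The 2 outermost genes of the cluster, Hoxb13 and Hoxb1, had no island of either antibody on them or within 1 kb of their ends.

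An island lay within 1 kb of the transcription start, or of a gene end where the reference tables give no strand, at 8 of 10 Hoxb genes for Hdac1 and at 8 of 10 for Hdac2. Over all protein-coding genes the shares were 61.2% for Hdac1 and 31.6% for Hdac2, and 30.9% of genes had both. The 8 genes with Hdac1 shared 1 island, so they are not separate observations. For Hdac2 the 8 genes drew on 8 islands, some of them shared by neighbouring genes. Hdac1 islands covered at least 50% of the span of 8 Hoxb genes, against 5.16% of all genes, and Hdac2 islands of 7, against 2.76%. Hdac1 islands took in the entire span of 8 of the 10 genes, against 1.78% of all genes, and Hdac2 islands that of 3, against 1.02%. The median share of a gene's span in islands was 100% for Hdac1 and 76.8% for Hdac2 over the 10 Hoxb genes, beside 3.18% and 0% over all genes. Hox genes are short and close together, and gene length and density were not matched in this comparison.

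**Figure D1:**
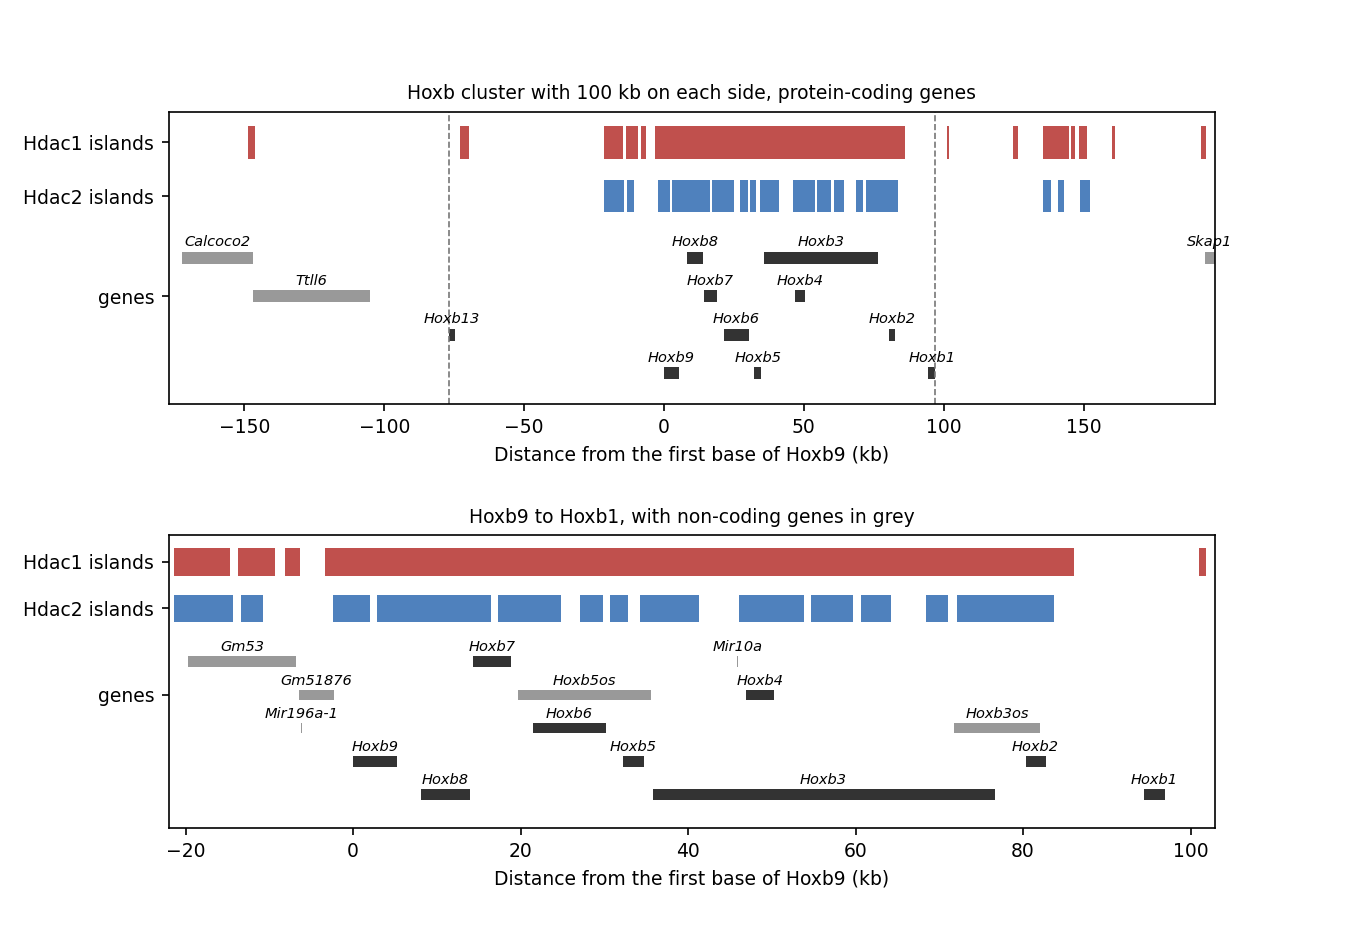
Map of the Hoxb cluster with 100 kb on each side (upper panel, dashed lines at the cluster's ends) and of Hoxb9 to Hoxb1 (lower panel); the horizontal axis is distance in kb from the first base of Hoxb9, bars are islands of each library, and boxes are annotated genes (Hoxb genes dark, others grey). A single Hdac1 bar of 89.4 kb runs over 8 Hoxb genes where the Hdac2 library has 11 bars, and no bar lies over Hoxb13 or Hoxb1.

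Promoter sequence is shown for Hoxb8 and Hoxb4, which lay inside islands of both antibodies, and for Hoxb1, which lay outside both. These are the 3 members with an entry in the RefSeq promoter table (GRCm38.p6, the assembly of mm10); Hoxb2, Hoxb3, Hoxb5, Hoxb6, Hoxb7, Hoxb9 and Hoxb13 are named only. Each sequence is the 250 bases before the transcription start on the plus strand, 5′ to 3′. Capitals mark matches on either strand to 5 motifs: TGATNNAT, the composite letters read by Pbx and Hox proteins; AGGTCA, the core letters read by retinoic acid and other nuclear receptors; TTTATGG and TTTATTG, letters read by Cdx proteins; and GGGCGG, the GC box.
Hoxb8, chr11:96281655-96281904: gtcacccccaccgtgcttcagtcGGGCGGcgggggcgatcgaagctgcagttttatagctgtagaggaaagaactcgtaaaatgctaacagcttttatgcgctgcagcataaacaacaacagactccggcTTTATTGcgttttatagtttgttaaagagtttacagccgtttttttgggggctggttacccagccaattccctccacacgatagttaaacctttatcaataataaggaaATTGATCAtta
Hoxb4, chr11:96318017-96318266: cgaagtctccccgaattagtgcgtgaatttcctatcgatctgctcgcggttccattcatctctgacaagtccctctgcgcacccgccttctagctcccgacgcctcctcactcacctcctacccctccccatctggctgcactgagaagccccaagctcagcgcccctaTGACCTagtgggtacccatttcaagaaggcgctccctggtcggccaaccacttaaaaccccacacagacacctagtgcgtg
Hoxb1, chr11:96365508-96365757: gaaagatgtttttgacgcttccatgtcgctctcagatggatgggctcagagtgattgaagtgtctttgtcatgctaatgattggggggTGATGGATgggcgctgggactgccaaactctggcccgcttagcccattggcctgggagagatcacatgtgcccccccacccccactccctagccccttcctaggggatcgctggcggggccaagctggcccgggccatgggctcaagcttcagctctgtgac

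The ratio of observed to expected CpG dinucleotides was 0.974 in the Hoxb8 sequence and 0.760 in that of Hoxb4, and 0.320 in that of Hoxb1. The count of CpG dinucleotides was 12 for Hoxb8 and 14 for Hoxb4, and 7 for Hoxb1. GC content did not fall in the same order, at 44.4% for Hoxb8, 58.0% for Hoxb4 and 59.2% for Hoxb1. Over all 32851 promoter windows, those within 1 kb of an Hdac1 island had a median ratio of 0.726 and those without one 0.194. For Hdac2 the medians were 0.776 with an island and 0.273 without. The Hoxb8 and Hoxb4 ratios were thus near or above the medians of windows with an island, and the Hoxb1 ratio lay between the medians with and without one. These are 3 sequences and no test was made on them.

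The Pbx and Hox letters occurred in the Hoxb8 window, 11 bp before the start, and in the Hoxb1 window, 162 bp before the start. Hoxb1 is known to activate itself together with Pbx proteins through sites of this kind upstream of the gene. The share of all promoter windows holding TGATNNAT was 7.68%. The nuclear receptor letters, held by 14.0% of windows, was found in the Hoxb4 window alone of these 3, 81 bp before the start. The Hoxb8 window held TTTATTG (4.20% of windows) and the GC box (32.7%), and TTTATGG (2.43%) was in none of the 3. A match is a description of letters and not a bound site.

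Gene by gene, Hdac1 covered all of each gene from Hoxb9 to Hoxb2, and Hdac2 coverage varied among these genes. Hdac2 islands covered 100% of Hoxb8, which acts in neural and blood progenitor cells, 100% of Hoxb4, known for the expansion of blood stem cells, and 100% of Hoxb2, which acts in the hindbrain. Hoxb9, a thoracic patterning gene, was covered to 84.8%, and Hoxb7, the gene active in the ureteric bud, to 82.5%. Hoxb3, a gene of the hindbrain and pharyngeal region with the longest annotated span (40.8 kb), was covered to 71.1%. Hoxb6, active in the lateral plate mesoderm, was covered to 70.7%, and Hoxb5, known for placing the forelimb, to 46.4%.

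Island edges lie on a grid of 200 bp, so shares of short genes move in coarse steps. A shift of all edges inside the span by 1 grid step is worth up to 15.3 percentage points at Hoxb5, 8.77 at Hoxb7 and 7.60 at Hoxb9. The order of Hoxb9 and Hoxb7, and that of Hoxb3 and Hoxb6, is therefore not resolved. The gap between Hoxb5 and the next genes in the order is larger than 1 such step at Hoxb5. Hoxb4 lies wholly inside the annotated span of Hoxb3, so islands over Hoxb4 count for both.

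**Figure D2:**
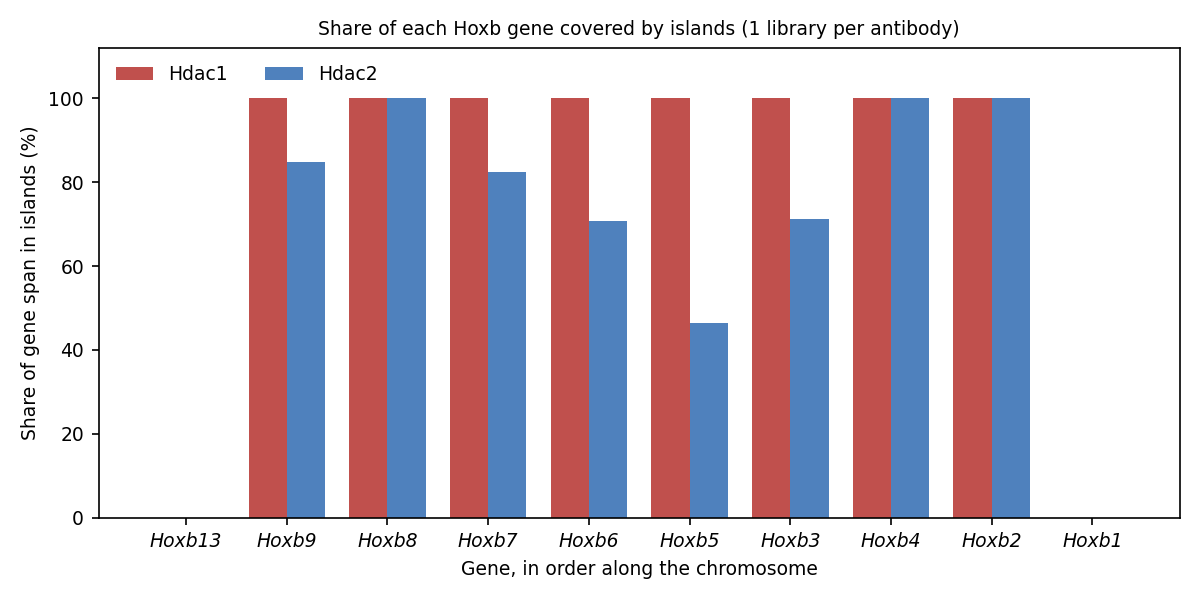
Share of the annotated span of each Hoxb gene that lies in islands (vertical axis, percent), by gene in chromosomal order; red bars are Hdac1, blue bars Hdac2, 1 library each and so without error bars. Hdac1 is at 100% from Hoxb9 to Hoxb2, Hdac2 ranges from 46.4% at Hoxb5 to 100% at Hoxb8, Hoxb4 and Hoxb2, and Hoxb13 and Hoxb1 are at 0% for both.

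The authors' values ranked the Hdac2 islands of the cluster over a wide range of their list. The strongest, chr11:96274201-96287800, measured 13.6 kb and ran from the end of Hoxb9 across Hoxb8 into Hoxb7, with a value of 3.65e-43. Only 0.611% of Hdac2 islands had a lower value. Next came the 7.8 kb island over Hoxb4 (9.69e-35, with 1.00% of the list lower) and a 3.6 kb island inside the Hoxb3 span (1.76e-25, with 2.24% lower). The 11.6 kb island over Hoxb2 and the end of Hoxb3 had a value of 1.56e-19, with 4.75% of the list lower.

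The Hdac2 islands at Hoxb5 were weaker. Those touching Hoxb5 measured 2.2 kb and 7.0 kb and had values of 9.29e-07 and 1.63e-07, with 69.6% and 60.2% of the list at lower values. A gap of 1.4 kb between them fell inside the gene. With the upper 50% of each list by value, both were left out, so that Hdac2 covered 0% of Hoxb5, and Hdac1 covered 100% as before. Under the same limit Hoxb3 was covered to 45.4% by Hdac2, against 71.1% with all islands. The weakest island of the cluster, 5.0 kb inside the Hoxb3 span, had a value of 0.000833, with 95.6% of the list lower.

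**Figure D3:**
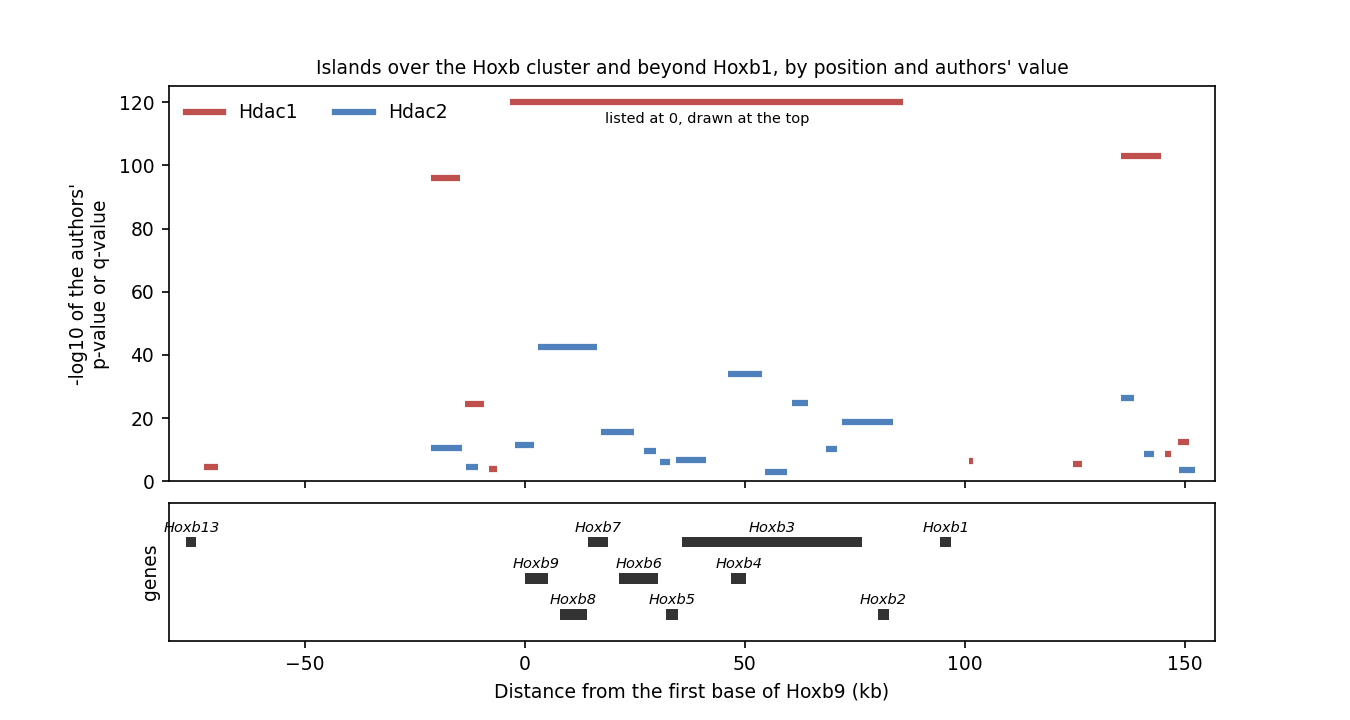
Islands of the Hoxb cluster and of the 60 kb beyond Hoxb1, drawn as horizontal lines at their position (distance from the first base of Hoxb9, kb) and at minus log10 of the authors' p-value or q-value; red is Hdac1, blue Hdac2, with the Hoxb genes below. The 89.4 kb Hdac1 island is listed at 0 and is drawn at the top, and the highest Hdac2 line is the 3.65e-43 island over Hoxb8; values rank islands within a library and do not compare the libraries.

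Between Hoxb9 and Hoxb2 the Hdac2 library left 10 gaps in 82.7 kb, and Hdac1 left none. The gaps had a median of 1.0 kb, near the 0.8 kb that is the smallest distance between islands of either list, and the longest was 4.8 kb. In all, 17.8 kb of this stretch had Hdac1 without Hdac2, and 64.9 kb (78.5%) had both. The gaps fell almost wholly inside genes. Within gene spans 17.4 kb of 70.3 kb was free of Hdac2, and between them 0.431 kb of 12.4 kb. The longest gaps, of 4.8 kb and 4.2 kb, were both inside the Hoxb3 span. When islands up to 1 kb apart were joined, the Hdac2 gaps in the whole cluster numbered 7 in place of 14, so the count of gaps depends on how islands are joined.

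Both miRNA genes annotated in the cluster lay in Hdac2 gaps, and their mature sequences are shown because they share the cluster with the Hoxb genes. The capitals mark the seed, bases 2 to 8; the sequences are RefSeq's, on the plus strand of GRCm38.p6.
mmu-miR-10a-5p: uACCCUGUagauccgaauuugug
mmu-miR-10a-3p: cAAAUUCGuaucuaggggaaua
mmu-miR-196a-5p: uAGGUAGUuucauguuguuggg
mmu-miR-196a-1-3p: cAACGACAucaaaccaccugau
The Mir10a hairpin, chr11:96317165-96317274, lay inside the 89.4 kb Hdac1 island and in the 4.8 kb Hdac2 gap inside the Hoxb3 span, 126 bp from the Hdac2 island over Hoxb4. That distance is less than 1 step of the grid. The Mir196a-1 hairpin, chr11:96265164-96265265, lay outside the islands of both libraries, 163 bp from an Hdac1 island and 3735 bp from the nearest Hdac2 island. The distance of 163 bp is also less than 1 step of the grid. That Hdac1 island was a weak one (0.000148, with 95.4% of Hdac1 islands lower). The message of Hoxb8 is a known target of miR-196a.

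Hoxb13, a posterior gene known for its part in the prostate and tail, spans chr11:96194316-96196610 and stands apart from the other genes. It had 0% of its span covered by either library. The nearest Hdac1 island was 1.79 kb away, a weak one of 3.2 kb (2.48e-05, with 92.3% of Hdac1 islands lower), and the nearest Hdac2 island was 53.4 kb away. A window of 5 kb in place of 1 kb counted that Hdac1 island and raised the Hdac1 count to 9 of 10, with Hdac2 still at 8.

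Hoxb1, which sets the identity of a hindbrain segment, spans chr11:96365746-96368254 at the other end. Its share was also 0% for both. The nearest Hdac1 island, 4.15 kb away, was 0.8 kb wide with a value of 3.95e-07, and the nearest Hdac2 island was 10.7 kb away, the one over Hoxb2. The 89.4 kb Hdac1 island ended between Hoxb2 and Hoxb1 and left 8.35 kb free of Hdac1 up to Hoxb1, and the Hdac2 island there ended 2.4 kb earlier.

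Over the cluster as a whole, from the first base of Hoxb13 to the last base of Hoxb1 (173.9 kb), Hdac1 islands covered 105.4 kb (60.6%) and Hdac2 islands 77.8 kb (44.7%). There were 5 Hdac1 islands and 13 Hdac2 islands, with 6 and 14 gaps. The longest Hdac1 gap, of 48.4 kb, lay between Hoxb13 and Hoxb9, and the longest Hdac2 gap, of 55.7 kb, held Hoxb13 itself and most of the same stretch. Counted from Hoxb9 to Hoxb1, without the outlying Hoxb13, coverage was 88.8% for Hdac1 and 68.0% for Hdac2. With the upper 50% of islands by value, Hdac1 coverage of the whole cluster was 57.7% and Hdac2 coverage 35.1%.

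Nearly all Hdac2 bases of the cluster lay in Hdac1 islands. Of the Hdac2 bases 99.5% were also in Hdac1 islands, and of the Hdac1 bases 73.4% were also in Hdac2 islands. Over all chromosomes the shares were 38.0% of Hdac2 bases and 36.1% of Hdac1 bases. The other Hox clusters were like Hoxb in this, with 97.4% of Hdac2 bases in Hdac1 islands in Hoxa, 100% in Hoxc and 93.9% in Hoxd. Of 26 Hdac2 edges in the cluster 3 lay within 400 bp of an Hdac1 edge of the same kind, as did 3 of 10 Hdac1 edges. The 11 Hdac2 islands inside the 89.4 kb Hdac1 island could match only its outer ends, so few shared edges were possible. The count therefore says little about how alike the libraries are. Whether both lists were called against the same background library is not stated, and its part in the overlap was not tested.

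When the chromosomes were divided into 15535 adjoining windows of the cluster's length, the median window had 0.920% of its bases in Hdac1 islands and 1.61% in Hdac2 islands. A share at or above that of the Hoxb cluster was found in 2 windows (0.0129%) for Hdac1 and in 20 windows (0.129%) for Hdac2. It was found for both in 2 windows, of which 1 was the window lying over the Hoxb cluster itself. The other was on chromosome 8 and held the predicted gene Gm40469. The Hoxa, Hoxc and Hoxd clusters measure 105.5, 115.7 and 96.9 kb, shorter than the window, so a window over them also takes in flanking bases. Over their own lengths Hdac1 covered 82.9%, 76.6% and 80.4%, so the window count does not rank Hoxb against them.

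**Figure D4:**
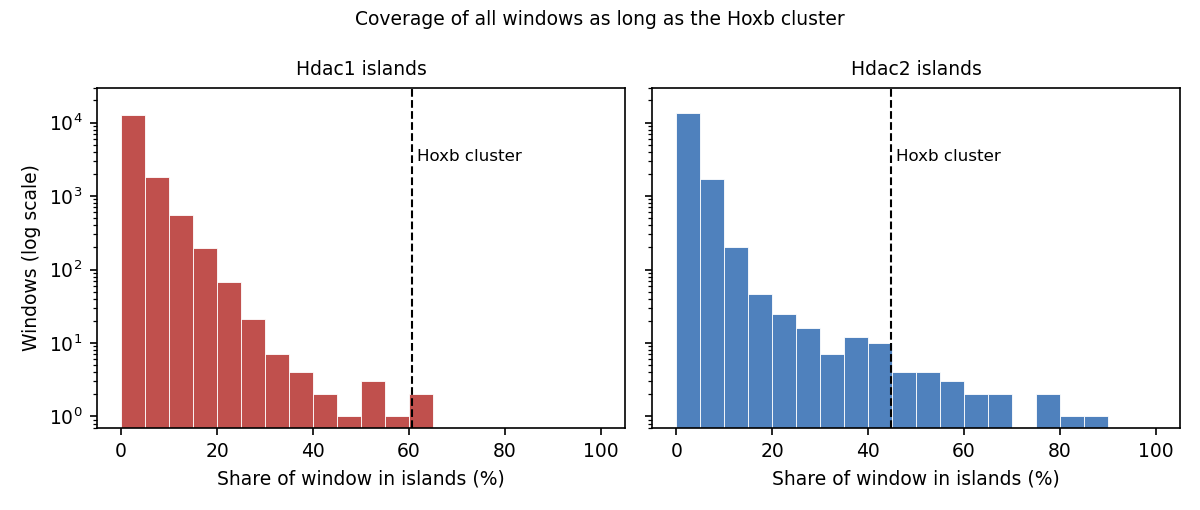
Number of windows (log scale) by the share of their bases in islands (percent), for Hdac1 (left) and Hdac2 (right), with 15535 windows of 173.9 kb in each panel; the dashed line marks the Hoxb cluster. The cluster's 60.6% for Hdac1 and 44.7% for Hdac2 lie far above the median windows of 0.920% and 1.61%.

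Coverage was lower in both flanks than in the cluster as a whole, and the flanks differed. Low coverage began inside the cluster. Hdac2 had no island in the first 55.7 kb from Hoxb13, and Hdac1 none in the last 10.9 kb to the end of Hoxb1. In the 100 kb beside Hoxb13, 1 Hdac1 island of 2.4 kb (5.13e-07) covered 2.40% of the bases and touched the facing ends of Calcoco2, an autophagy receptor gene, and Ttll6, a tubulin-modifying enzyme gene. There was no Hdac2 island in that flank. In the 100 kb beside Hoxb1, 7 Hdac1 islands covered 18.8% and 3 Hdac2 islands covered 9%.

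The strongest islands beside Hoxb1 formed a group between that gene and Skap1. The widest, an Hdac1 island of 9.2 kb at chr11:96406801-96416000, began 38.5 kb from the last base of Hoxb1. It had a value of 1.02e-103, rank 1962 of the Hdac1 list, and overlapped 2 Hdac2 islands. The first of these began at the same base, measured 3.0 kb and had a value of 5.70e-27, with 1.95% of Hdac2 islands lower, the third lowest value among the Hdac2 islands of the cluster and its flanks. No annotated gene overlaps these islands. Skap1, an adaptor gene of T cells, reaches beyond the flank and overlapped 11 Hdac1 islands and 5 Hdac2 islands over its whole span. Of these, 1 Hdac1 island lay inside the flank, 1.8 kb wide over the first annotated base of Skap1, with a value of 3.87e-08.

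The 89.4 kb Hdac1 island and an Hdac2 island of 4.4 kb (4.07e-12) reached from Hoxb9 into the stretch towards Hoxb13. Of the islands wholly between Hoxb13 and Hoxb9, those with the lowest values lay at the Hoxb9 side, over the long non-coding RNA gene Gm53. The weak Hdac1 island near Hoxb13 lay over another, Gm30134, and covered 57.5% of its span. An Hdac1 island of 6.6 kb, chr11:96250001-96256600, and an Hdac2 island of 7.0 kb began at the same base, with values of 7.66e-97 and 3.37e-11. Gm53 had 82.8% of its span in Hdac1 islands and 61.9% in Hdac2 islands. Inside the cluster Hoxb5os, the antisense gene over Hoxb5 and Hoxb6, was covered to 100% and 72.3%, and Hoxb3os to 100% and 96.5%. Gene and antisense gene share these bases, so the islands cannot be assigned to either.

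Set beside the other Hox clusters, the Hoxb cluster had the widest Hdac1 island and, counted from Hoxb13 to Hoxb1, the lowest Hdac1 coverage. The widest Hdac1 island measured 89.4 kb over Hoxb, 47.4 kb over Hoxa, 64.0 kb over Hoxc and 42.2 kb over Hoxd. Hdac1 covered 60.6% of the Hoxb cluster, 82.9% of Hoxa, 76.6% of Hoxc and 80.4% of Hoxd. The Hoxb cluster includes the long stretch between Hoxb13 and Hoxb9. Hdac2 covered 44.7% of Hoxb, 59.2% of Hoxa, 43.6% of Hoxc and 57.4% of Hoxd. Counted from Hoxb9 to Hoxb1, Hoxb coverage was 88.8% for Hdac1 and 68.0% for Hdac2. Both shares were above those of the other clusters taken whole, so the rank of Hoxb depends on where the cluster is cut. The share of Hdac1 bases that were also in Hdac2 islands was 73.4% in Hoxb, 69.6% in Hoxa, 56.8% in Hoxc and 67.0% in Hoxd. With 1 library per antibody these differences were not tested.

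**Figure D5:**
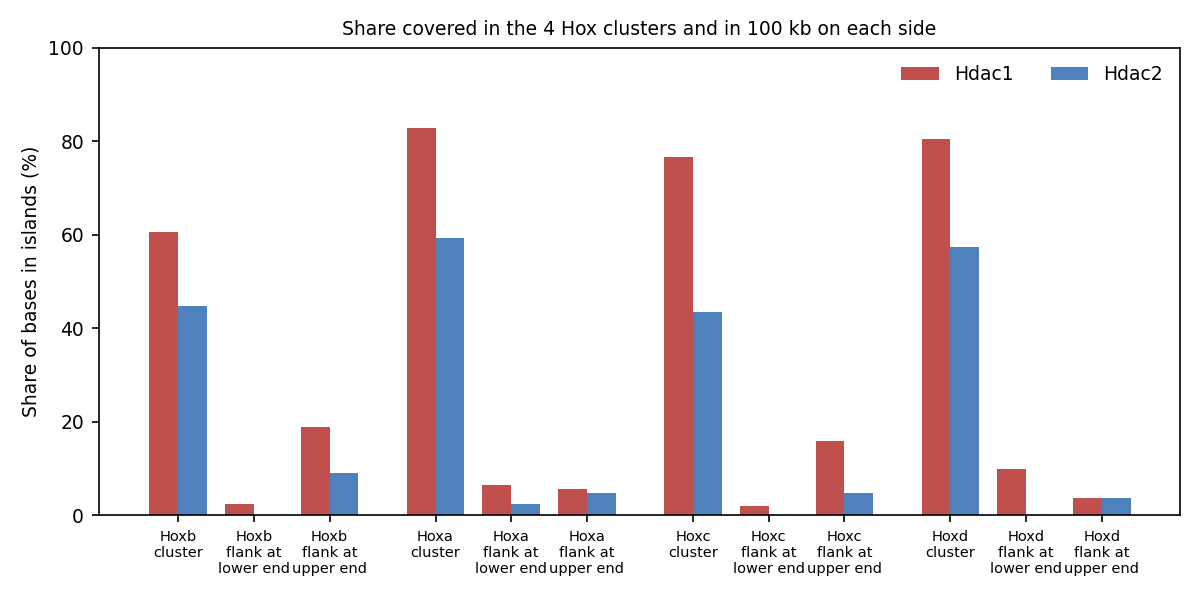
Share of bases in islands (vertical axis, percent) for each Hox cluster and for 100 kb at its lower and upper end on the chromosome; red is Hdac1, blue Hdac2, 1 library each. The lower end of Hoxb is the side of Hoxb13 (2.40% for Hdac1 and 0% for Hdac2) and the upper end the side of Hoxb1 (18.8% for Hdac1 and 9% for Hdac2), against 60.6% and 44.7% in the cluster.

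Among all 39 Hox genes, Hoxb13 and Hoxb1 were the 2 without an Hdac1 island within 1 kb of the start or gene end, and the 29 genes of the other clusters all had one. Within paralog group 13, Hdac1 covered 0% of Hoxb13, 63.1% of Hoxa13, 13.9% of Hoxc13 and 100% of Hoxd13. Hdac2 covered 0% of Hoxb13, 100% of Hoxa13, 0% of Hoxc13 and 0% of Hoxd13. Within paralog group 1, Hdac1 covered 0% of Hoxb1 and 100% of Hoxd1, and Hdac2 covered 0% of Hoxb1 and 47.2% of Hoxd1.

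Inside the clusters, Hdac2 coverage of paralogs was similar in some groups and differed in others. In group 9 the share was 84.8% at Hoxb9, 81.3% at Hoxa9, 100% at Hoxc9 and 100% at Hoxd9. In group 5, where Hoxb5 was lowest among the covered Hoxb genes, it was 46.4% at Hoxb5, 63.1% at Hoxa5 and 46.6% at Hoxc5. In group 3, the genes with the longest spans, it was 71.1% at Hoxb3, 41.8% at Hoxa3 and 33.1% at Hoxd3. In group 4 it was 100% at Hoxb4, 100% at Hoxa4, 18.1% at Hoxc4 and 24.5% at Hoxd4. The 29 genes of the other clusters included 25 with an Hdac2 island within 1 kb of the start or gene end, the exceptions being Hoxc12, Hoxc13, Hoxd4 and Hoxd13, and their median Hdac2 coverage was 68.5%, against 76.8% for the 10 Hoxb genes.

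By the number of protein-coding genes held whole, the Hoxb island was first in the Hdac1 list with 8. The islands most like it by this measure held 6 predicted genes on chromosome 4 (Gm13275 and its neighbours, 19.4 kb), and 5 genes each of the Hoxc, Hoxa and Hoxd clusters and of a run of predicted genes at Gm36327. Replication-dependent histone genes on chromosome 13 followed, with 5 genes including H2ac8 and H3c4 and then 4 including H4c2, and the remaining pair held 4 genes at Ifnz and 3 at Gm4302. In the Hdac2 list each Hoxb island held at most 1 whole gene, and none was among the first 10. There the Gm13275 group came first with 6 genes, the groups at Gm51573, Gm4302, Gm36327 and Ifnz held 5 each, and histone genes at H2ac8, H2ac11 and H2bc13 held 4, 3 and 3. The last of the 10 held 2 genes each, at Speer4d and Speer4e, and were taken from islands with that number by their width.

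Genes that act with or upstream of Hoxb mostly carried islands within 1 kb of the start or gene end, where 61.2% of all genes had Hdac1 and 31.6% had Hdac2, and smaller shares of their spans were covered than of the Hoxb genes. Of 9 genes for Hox cofactors of the Meis, Pbx and Pknox families, 9 had an Hdac1 island and 8 an Hdac2 island, Pbx4 being the exception. Meis1 and Meis2, whose proteins bind DNA with Hox proteins, were listed at 0 for Hdac1. The median share of the span was 11.4% for Hdac1 and 4.97% for Hdac2 over the cofactors, beside 3.18% and 0% over all genes. Of 19 genes for inputs to Hoxb transcription, among them Cdx factors, retinoic acid pathway genes, Kmt2a and Polycomb subunits, 18 had Hdac1 and 16 had Hdac2, with median shares of the span of 13.8% and 3.80%. Cdx4, on the X chromosome, had neither. Cdx2 and Cyp26a1, which breaks down retinoic acid, had Hdac1 alone, and Kmt2a, the methyltransferase that maintains Hox transcription, was listed at 0 for Hdac1.

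The label of the cells could be set beside islands only, since islands do not measure expression. Counts are again of islands within 1 kb of the start or gene end, which 61.2% of all genes had for Hdac1 and 31.6% for Hdac2. Of 9 nephron progenitor markers, 9 had Hdac1 and 8 had Hdac2, Meox1 being the exception, with median shares of the span of 28.9% and 17.1%. Of 5 ureteric bud markers 3 had Hdac1 and 3 had Hdac2 (medians 2.49% and 2.05%). Of 3 stromal markers 3 had Hdac1 and 2 had Hdac2, Col1a1 being the exception (medians 95.7% and 74.4%). Of 3 endothelial markers 1, Kdr, had Hdac1 and 0 had Hdac2, and Pecam1 and Cdh5 had neither there (medians 3.60% and 0%). Islands farther inside the genes covered 3.60% of Pecam1 in the Hdac1 library and 1.73% of Kdr in the Hdac2 library. The part of any other cell type in the Hoxb islands was not tested.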

How the data were processed

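Each file lists the islands of 1 library on build mm10. The authors named SICER, which joins neighbouring enriched windows, with BWA 0.7.5a, bedtools 2.17, SAMtools 1.3.1 and FastQC, per the submitters' processing notes. SICER's version and settings, its background library, any pooling and the depth: not given in the sources used here. Each island has 1 deposited value, which may be a p-value or a q-value. It depends on depth and background and ranks islands within a list only. Starts fall on a grid of 200 bp; positions are given 1-based.

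Gene spans, promoter starts and miRNAs came from RefSeq tables of GRCm38.p6. A start with strand was given for 17492 of 21887 protein-coding genes, and both gene ends were used for the other 4395. Any overlap of at least 1 bp counted. Named genes are the Hoxb genes, annotated neighbours within 100 kb, the 10 islands per library holding most genes, and, of the gene lists, those with no island or listed at 0. Some genes of these lists are not reported here by name. Counts are descriptions; no test was run. Members, lists and motifs were chosen with earlier results of these data known. The step that finds genes with an island was run on islands planted in the searched windows. This checks the code only, and false calls were not counted. Coverage and gaps were checked on the deposited lists against a base-by-base count. The other steps had no such check. Python 3.11.15, numpy 2.4.6, pandas 2.3.3 and matplotlib 3.10.9 were used.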

Additional observations from a re-analysis of the deposited data

How the results depend on the processing

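Of 37 alternative values 26 stayed near the main one. From Hoxb9 to Hoxb1, without Hoxb13, the share covered was 88.8% for Hdac1 and 68.0% for Hdac2, and the Hdac1 library left 1 gap in place of 6. With the upper 50% of islands by value, the Hdac2 share of the cluster was 35.1%, the flanks were covered to 4.60% by Hdac1 and 2.70% by Hdac2, and 60.4% of Hdac1 bases were also in Hdac2 islands. In flanks of 50 kb the Hdac1 share was 13.4%, against 10.6% in 100 kb. Joining islands up to 1 kb apart gave 48.3% for Hdac2 and 7 Hdac2 gaps in place of 14. With lists of equal length, 77.1% of Hdac1 bases were also in Hdac2 islands. The members with an island numbered 8 to 9 for Hdac1 and 7 to 8 for Hdac2 across the alternatives. The cause of these shifts was not tested. No paired analysis was possible because each antibody had 1 library. The read depth is unknown, so a gap may be a stretch without islands at this depth.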
